A study of Mus musculus with 2 samples.

Results

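The 40 genes described here are a list of cell cycle genes split by phase, 17 of S phase and 23 of G2 or M phase, and they were followed through the colonic CD4 T cells of Rag-deficient mice. Members were chosen by name, and 40 of 40 were among the 11971 genes of the deposited table of UMIs (unique molecular identifiers, each standing for 1 captured RNA molecule). Their 162740 UMIs made up 0.282% of the UMIs of the table. Every recipient was Rag-/-, a genotype that leaves a mouse without mature T or B cells of its own, so the T cells recovered came from donors. In the WT group the recipients had been given naïve or CD4+, CD45RBhigh, CD25- T cells, and in the KO group BCL-6 deficient CD4+ T cells. BCL-6 is a transcriptional repressor best known from follicular helper T cells. There were 6 KO and 6 WT mice. The labels give no age, no Cre or deleted exon, and no word on whether mice shared a donor, so the p-values below measure the spread between these mice. TCRb+CD4+ T cells of the colon were sorted, each mouse marked by its own hashtag antibody, and run together as 1 library of 5′ chemistry. Bcl6 UMIs cannot check the KO label, because the deleted part of the gene is not named.

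The table held 18860 cells with as many distinct barcodes, 9708 of them from KO mice. A mouse contributed 1409 to 1736 cells and 4252124 to 5523025 UMIs, with a median of 2381 to 3102.5 UMIs per cell. The authors had assigned cells to clusters, and their labels were used: recirculating (4292 cells), cytotoxic (3855), Th17 (2221), cycling (1188) and regulatory (380). Clusters 1 (3940 cells) and 3 (2984), which the authors named only as CD4 T cells, are referred to here as unnamed 1 and unnamed 3. KO mice held more of the unnamed clusters, which made up 34.8% ± 9.14 and 24.6% ± 12.1 (SD, n = 6) of their cells outside the cycling subset against 8.91% ± 2.30 and 8.06% ± 1.67 in WT mice. They held fewer cytotoxic cells (9.26% ± 4.94 against 35.6% ± 7.83) and Th17 cells (6.27% ± 3.11 against 19.1% ± 6.14). All 8 T cell markers looked for were in the table. Of the markers of other cells, 0 of 4 erythroid and 4 of 9 B or plasma cell genes were in it, without Cd79a or Ms4a1. The summed level of the 9 measured epithelial genes overlapped between genotypes, at 13.0 to 28.9 UMIs per 1000000 UMIs (CPM) in KO mice and 15.6 to 28.8 in WT mice. That of the 8 measured myeloid genes overlapped too, at 183 to 260 CPM in KO mice and 201 to 247 in WT mice. Of single markers of other cells, several differed between KO and WT mice over all cells in edgeR. Igkc stood at 1.57 and 18.1 CPM (adjusted p = 7.0e-05), Krt18 at 3.72 and 13.7 (0.00013) and the natural killer receptor Klrb1c at 1.35 and 4.10 (0.0134). Of the myeloid list, Cst3 was lower in KO mice as well (123 and 138 CPM, edgeR adjusted p = 0.0476). H2-Aa of the same list was higher in KO mice (10.1 and 5.59 CPM, edgeR adjusted p = 0.0259). The part of these markers in the results below was not tested.

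A dividing cell copies its DNA in S phase and separates the copies in mitosis, and each step has its own set of transcripts. S phase genes encode the MCM helicase and its loaders, the enzymes that make DNA precursors, and the machinery of the replication fork. Many are targets of E2F transcription factors, which the retinoblastoma family holds in check in resting cells. G2 and M phase genes encode cyclins, mitotic kinases, kinetochore and spindle proteins and the ubiquitin machinery that ends mitosis. Many carry the cell cycle homology region (CHR) in their promoters, through which the DREAM complex represses them in resting cells and the MuvB complex with B-MYB and FOXM1 activates them later. T cells that recognise antigen leave quiescence and divide fast, so that the genes serve as a readout of cycling in T cell samples.

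Promoters of the same members are shown here because the 2 phases differed in the short sequences they carry. RefSeq promoters of 300 bases, from 250 before to 50 after the annotated start (GRCm38.p6), were found for 34 of the 40 members, not for Mcm4, Gins2, Ccna2, Stmn1, Tpx2 or Aurkb. The 34 members had 39 promoters, and a gene was counted with a match in any of its promoters. The shares of all promoters are per promoter, so the 2 kinds of share are not quite alike. Searched on both strands, an E2F motif (TTTCCCGC, TTTCGCGC, TTTGCCGC or TTTGGCGC) lay in the promoters of 7 of 15 S genes (46.7%: Mcm3, Mcm5, Mcm6, Mcm7, Uhrf1, Cdc6 and Lig1). It lay in those of 1 of 19 G2/M genes (5.26%, Cdk1) and in 2.26% of all 32851 promoters. A CHR motif (TTTGAA or TTCGAA) lay in those of 15 of 19 G2/M genes (78.9%), of 3 of 15 S genes (20%: Mcm2, Mcm7 and Fen1) and in 19.2% of all promoters. CCAAT lay in 84.2%, 60% and 37.4%, respectively. These are matches of letters, and no binding was measured. The first 6 sequences belong to the 3 S and the 3 G2/M members with the highest mean level in the cycling subset among those with a promoter entry, which passes over Stmn1. Mcm6, Tk1, Ccnb2, Cenpa and Ube2c, called in the comparisons below, were added after their values were seen. Capitals mark the E2F and CHR matches, and each sequence reads along the strand of its gene:
Dut: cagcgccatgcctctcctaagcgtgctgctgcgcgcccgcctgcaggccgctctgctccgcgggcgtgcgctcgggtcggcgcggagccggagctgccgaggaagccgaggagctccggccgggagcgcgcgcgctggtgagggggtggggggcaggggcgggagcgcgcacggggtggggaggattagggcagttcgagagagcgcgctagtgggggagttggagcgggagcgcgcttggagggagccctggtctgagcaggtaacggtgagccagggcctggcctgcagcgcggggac
Rrm2: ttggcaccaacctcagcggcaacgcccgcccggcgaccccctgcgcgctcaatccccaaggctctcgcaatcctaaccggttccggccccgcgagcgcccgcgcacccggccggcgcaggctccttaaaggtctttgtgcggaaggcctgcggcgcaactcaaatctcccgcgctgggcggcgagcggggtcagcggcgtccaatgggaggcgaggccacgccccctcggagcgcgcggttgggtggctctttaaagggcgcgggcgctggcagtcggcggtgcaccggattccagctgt
Mcm3: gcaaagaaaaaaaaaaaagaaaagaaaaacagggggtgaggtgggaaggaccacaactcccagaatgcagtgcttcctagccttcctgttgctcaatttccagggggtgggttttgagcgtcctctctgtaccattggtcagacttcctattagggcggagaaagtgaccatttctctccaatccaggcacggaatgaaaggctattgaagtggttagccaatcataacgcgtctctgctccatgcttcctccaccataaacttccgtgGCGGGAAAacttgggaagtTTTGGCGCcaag
Hmgb2: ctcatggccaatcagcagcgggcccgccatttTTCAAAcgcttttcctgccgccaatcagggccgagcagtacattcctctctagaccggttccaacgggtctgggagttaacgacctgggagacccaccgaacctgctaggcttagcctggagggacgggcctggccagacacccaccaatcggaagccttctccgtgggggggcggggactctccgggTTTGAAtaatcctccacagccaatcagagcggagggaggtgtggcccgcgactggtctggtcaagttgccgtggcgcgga
Mki67: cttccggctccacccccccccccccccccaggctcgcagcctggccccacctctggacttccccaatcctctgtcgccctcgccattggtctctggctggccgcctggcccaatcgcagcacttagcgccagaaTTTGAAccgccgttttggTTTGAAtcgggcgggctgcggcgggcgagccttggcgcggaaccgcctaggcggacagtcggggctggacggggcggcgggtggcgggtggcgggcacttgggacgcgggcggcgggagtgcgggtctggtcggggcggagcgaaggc
Top2a: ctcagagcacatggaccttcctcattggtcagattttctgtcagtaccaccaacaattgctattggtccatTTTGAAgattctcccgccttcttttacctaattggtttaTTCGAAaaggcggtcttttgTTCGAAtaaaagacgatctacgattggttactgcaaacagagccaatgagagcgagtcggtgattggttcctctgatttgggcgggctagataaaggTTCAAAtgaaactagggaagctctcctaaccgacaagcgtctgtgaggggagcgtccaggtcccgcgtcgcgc
Mcm6: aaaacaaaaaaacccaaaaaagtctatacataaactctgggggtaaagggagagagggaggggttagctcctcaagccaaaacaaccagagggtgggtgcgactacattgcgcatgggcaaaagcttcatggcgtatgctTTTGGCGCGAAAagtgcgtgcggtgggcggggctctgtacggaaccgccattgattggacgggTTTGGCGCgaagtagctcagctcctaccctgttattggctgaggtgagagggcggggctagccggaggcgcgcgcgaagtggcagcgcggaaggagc
Tk1: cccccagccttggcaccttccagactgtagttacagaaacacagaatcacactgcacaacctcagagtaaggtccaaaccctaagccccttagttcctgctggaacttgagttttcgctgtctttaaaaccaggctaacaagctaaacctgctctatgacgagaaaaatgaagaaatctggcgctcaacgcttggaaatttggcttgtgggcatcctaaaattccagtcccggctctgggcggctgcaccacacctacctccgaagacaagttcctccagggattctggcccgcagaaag
Ccnb2: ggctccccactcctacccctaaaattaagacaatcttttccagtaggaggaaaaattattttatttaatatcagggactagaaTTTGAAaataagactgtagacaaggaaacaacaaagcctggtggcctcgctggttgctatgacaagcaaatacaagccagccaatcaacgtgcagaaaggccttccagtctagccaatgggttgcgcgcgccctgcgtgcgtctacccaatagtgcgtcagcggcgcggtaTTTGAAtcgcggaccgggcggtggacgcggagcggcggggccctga
Cenpa: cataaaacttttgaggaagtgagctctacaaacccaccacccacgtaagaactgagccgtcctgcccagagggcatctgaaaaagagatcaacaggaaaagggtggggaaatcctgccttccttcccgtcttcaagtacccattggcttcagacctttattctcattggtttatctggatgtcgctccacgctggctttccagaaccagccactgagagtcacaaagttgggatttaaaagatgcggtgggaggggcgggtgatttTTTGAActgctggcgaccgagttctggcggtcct
Ube2c: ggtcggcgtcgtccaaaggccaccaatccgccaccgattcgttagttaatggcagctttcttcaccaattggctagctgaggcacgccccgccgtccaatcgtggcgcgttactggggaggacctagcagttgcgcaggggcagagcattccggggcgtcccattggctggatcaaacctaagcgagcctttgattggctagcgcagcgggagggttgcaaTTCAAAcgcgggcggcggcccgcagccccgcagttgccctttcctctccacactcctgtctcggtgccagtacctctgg
The promoters lie at chr2:125247265-125247564 (Dut, plus strand), chr12:24708004-24708303 (Rrm2, plus strand), chr1:20820263-20820562 (Mcm3, minus strand), chr8:57511593-57511892 (Hmgb2, plus strand), chr7:135716330-135716629 (Mki67, minus strand), chr11:99024140-99024439 (Top2a, minus strand), chr1:128359656-128359955 (Mcm6, minus strand), chr11:117825965-117826264 (Tk1, minus strand), chr9:70421505-70421804 (Ccnb2, minus strand), chr5:30666636-30666935 (Cenpa, plus strand) and chr2:164769679-164769978 (Ube2c, plus strand). In the Mcm6 promoter 2 of the 3 E2F matches overlap, which gives the run TTTGGCGCGAAA. Dut, Rrm2 and Tk1 held no match to either motif in these windows.

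Transcripts of both phases were concentrated in the cycling subset, which held 6.30% of the cells and 10.5% of all UMIs. It held 52.4% of the UMIs of S genes and 49.3% of those of G2/M genes, the latter rising to 75.7% when Hmgb2 was left out (chosen after seeing the data). Levels are given as CPM of the UMIs summed per mouse, so that fewer cells of a type and less RNA per cell cannot be told apart in any sum over types. Since the clusters were built from these cells and include these genes, levels between clusters are a description and carry no test. The fold of the cycling over the remaining cells, from the means of 12 mice, had a median of 12.3 over the S genes and 46.6 over the G2/M genes. It passed 50 in 2 of 17 S genes and in 10 of 23 G2/M genes, and stayed below 10 in 7 and 2.

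Among the S genes, those of DNA precursor supply spanned the range. Rrm2, the regulated subunit of ribonucleotide reductase, stood at 348 ± 40.6 CPM (SD, n = 12) in cycling cells and 3.83 ± 1.14 in the others, a 90.7-fold difference. Its partner Rrm1, the catalytic subunit, reached 270 ± 27.3 against 23.3 ± 3.43 CPM (11.6-fold). The salvage enzyme thymidine kinase Tk1 had a fold of 39.4, thymidylate synthase Tyms of 19.4 and Dut, which clears dUTP, of only 6.17 with 74.2 CPM outside the cycling subset. The loading factor Cdc6 fell to 0.730 CPM outside the subset (76.5-fold). The helicase subunits spread from Mcm5 (14.6-fold) and Mcm3 (12.3-fold) through Mcm7 (9.69-fold) and Mcm2 (7.98-fold) to Mcm4 (4.78-fold) and Mcm6 (4.64-fold), so that subunits of 1 complex differed in how far they were confined to cycling cells. Pcna, the sliding clamp, was the S gene with the next lowest fold, 5.48, with 52.7 ± 5.74 CPM in the other cells. Lig1, Gins2, Fen1 and Uhrf1 lay at 14.8, 13.1, 9.22 and 21.9-fold. The UMIs of Mcm7, Gins2, Tk1, Lig1, Fen1, Ccna2, Nusap1, Cdca8 and Cdc20 can include those of an overlapping gene, since the use of strand in counting is not given here.

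Among the G2/M genes, the cyclin of S and G2 Ccna2 had the highest fold of the 40, with 245 ± 28.1 CPM in cycling cells against 1.84 ± 0.692 (133-fold). The kinetochore proteins Cenpf (107-fold) and Bub1 (96.9-fold) and the spindle protein Nusap1 (95.6-fold) followed. The passenger complex members Birc5, Aurkb and Cdca8 reached 78.3, 67.8 and 48.4-fold, and the kinases Plk1, Cdk1 and Aurka 71.3, 46.6 and 21.9-fold. The spindle motors Kif11 and Kif20b reached 58.3 and 12.7-fold, the spindle assembly factor Tpx2 53.3-fold and the kinetochore motor Cenpe 40.03-fold. Stmn1, which destabilises microtubules, stood at 841 ± 142 against 11.5 ± 3.18 CPM (73.4-fold). The mitotic cyclins Ccnb1 and Ccnb2 lay at 45.7 and 29.4-fold. Cdc20, an activator of the anaphase-promoting complex, and Ube2c, the ubiquitin-conjugating enzyme of that complex, lay at 44.6 and 31.4-fold. The proliferation marker Mki67 was at 877 ± 99.4 CPM in cycling cells and 25.7 ± 5.51 in the others (34.1-fold), and the topoisomerase Top2a at 737 ± 121 and 35.9 ± 4.65 (20.5-fold). At the other end, the histone H3 variant of centromeres Cenpa (4.90-fold, 89.9 ± 14.0 CPM in the other cells) and the chromatin protein Hmgb2 (3.72-fold, 3493 ± 280 against 940.1 ± 75.4 CPM) were the least confined. Hmgb2 alone supplied 80.0% of the G2/M UMIs outside the cycling subset and 36.0% within it.

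**Figure D1:**
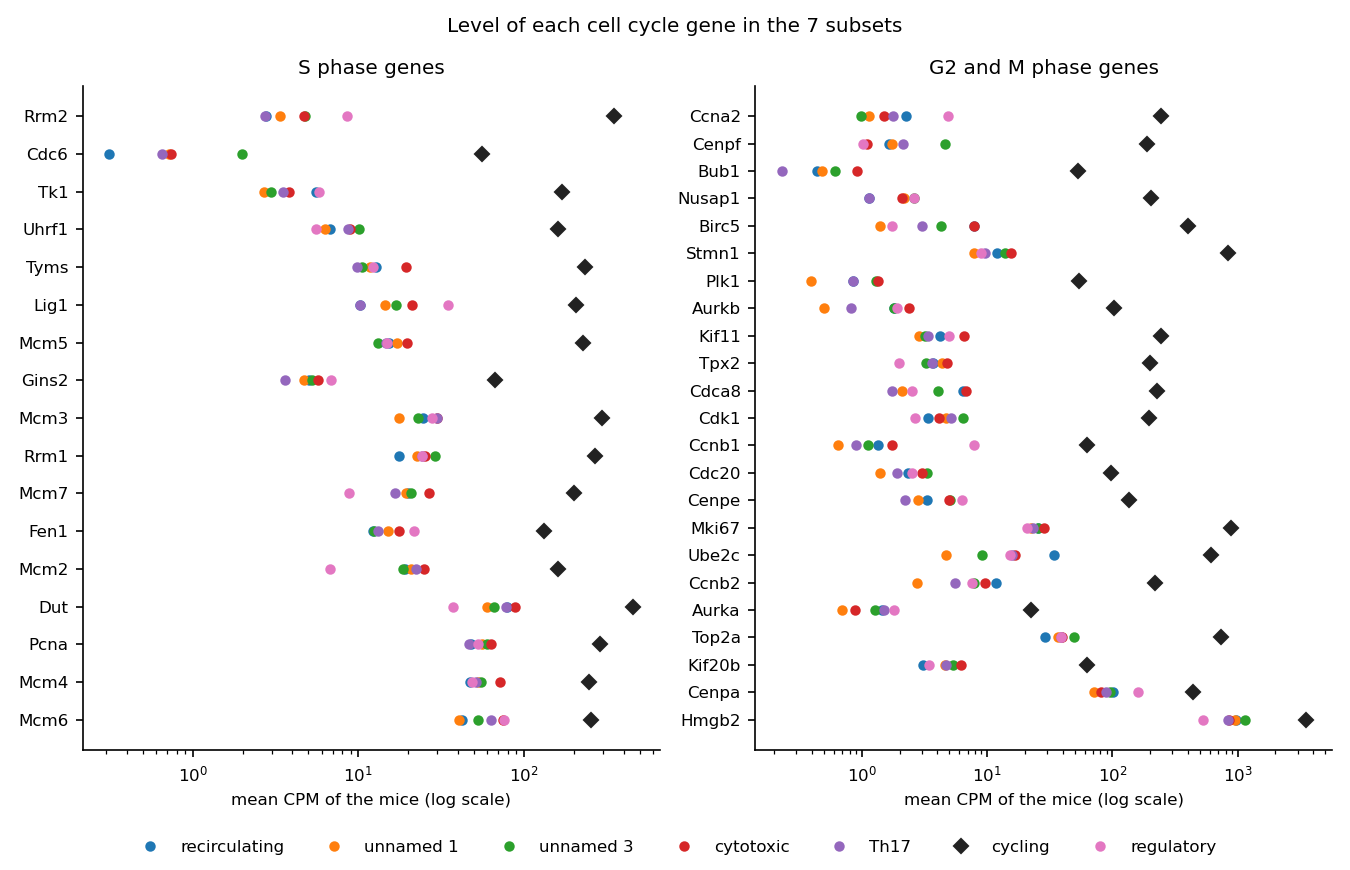
Mean CPM of the mice (log scale) of each member in the 7 subsets, S genes on the left and G2/M genes on the right, ordered by the fold of cycling over other cells. The black diamonds of the cycling subset lie to the right of every other subset for each gene, with folds over all other cells pooled from 3.72 (Hmgb2) to 133 (Ccna2); means of 0 (Cdc6, Bub1 and Plk1 in regulatory cells) cannot be drawn on a log axis.

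Within the cycling subset the phases overlapped in most cells and separated by degree. With 5 UMIs of a phase as the limit and Hmgb2 left out, 783 of 1188 cells (65.9%) passed for both phases, 196 (16.5%) for S only, 186 (15.7%) for G2/M only and 23 (1.94%) for neither. The median cell had 17 UMIs of S genes and 23 of G2/M genes, and over the 1188 cells the 2 sums had a Spearman correlation of 0.12 and a Pearson correlation of 0.07, in counts that share the depth of each cell. At the limit, 61 cells had an S count next to it and 80 a G2/M count. S-only cells made up 18.7% ± 4.74 of the cycling cells in KO mice and 14.4% ± 3.26 in WT mice (SD, n = 6), G2/M-only cells 14.0% ± 6.05 and 16.96% ± 3.27, and the ranges of the genotypes overlapped for both.

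To order the members along the cycle, the cycling cells of each mouse were ranked by genes that are not members. The rank was the share of UMIs of 52 further S genes among those of the 52 and of 58 further G2/M genes. Abundant genes weigh most in such a share. On the G2/M side, Tubb5 had a mean of 2566 CPM in KO and 2245 in WT mice, H2afz 2247 and 2433, and Tuba1b 2227 and 1854. The cells were cut into an S-leaning, a middle and a G2/M-leaning part of 398, 397 and 393 cells. All 23 G2/M genes were higher in the G2/M-leaning part in 12 of 12 mice, and 16 of 17 S genes had a higher mean in the S-leaning part, 12 of them in every mouse. Ube2c, the ubiquitin-conjugating enzyme of the anaphase-promoting complex, had the steepest gradient, from 32.7 ± 23.5 through 360.5 ± 91.0 to 1410 ± 229 CPM (43.2-fold). Cenpf (27.0-fold), Ccnb1 (24.1-fold), Ccnb2 (23.8-fold) and Cdc20 (23.3-fold) came next. Cdk1 (3.64-fold), Mki67 (3.18-fold), Top2a (3.16-fold), Hmgb2 (2.48-fold) and Stmn1 (2.05-fold) had the flattest gradients of the G2/M genes, and Stmn1 and Top2a were highest in the middle part.

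On the S side, Cdc6 was 5.81-fold, Gins2 5.46-fold, Mcm2 5.42-fold, Mcm6 5.002-fold and the ligase Lig1 4.84-fold higher in the S-leaning part, and the helicase subunits Mcm5, Mcm3, Mcm4 and Mcm7 3.72, 3.69, 3.49 and 3.18-fold. Mcm6 fell from 395 ± 73.3 through 286 ± 47.8 to 79.0 ± 15.3 CPM. The genes of precursor supply differed among themselves. Dut was highest in the S-leaning part (574 ± 61.9, 569 ± 56.9 and 233 ± 62.3 CPM), in 12 of 12 mice above the G2/M-leaning part. Rrm2 went from 175 ± 71.9 to 595 ± 78.4 in the middle and 274 ± 74.3 CPM in the G2/M-leaning part, and was higher there than in the S-leaning part in 10 of 12 mice, the only S gene on that side. Rrm1, Tk1 and Tyms, with fold differences of 1.12, 1.51 and 1.96, were also highest in the middle, as were Fen1, Pcna, Uhrf1 and Cdc6. Median depth was similar in the 3 parts, at 5101, 4958 and 5331 UMIs per cell.

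**Figure D2:**
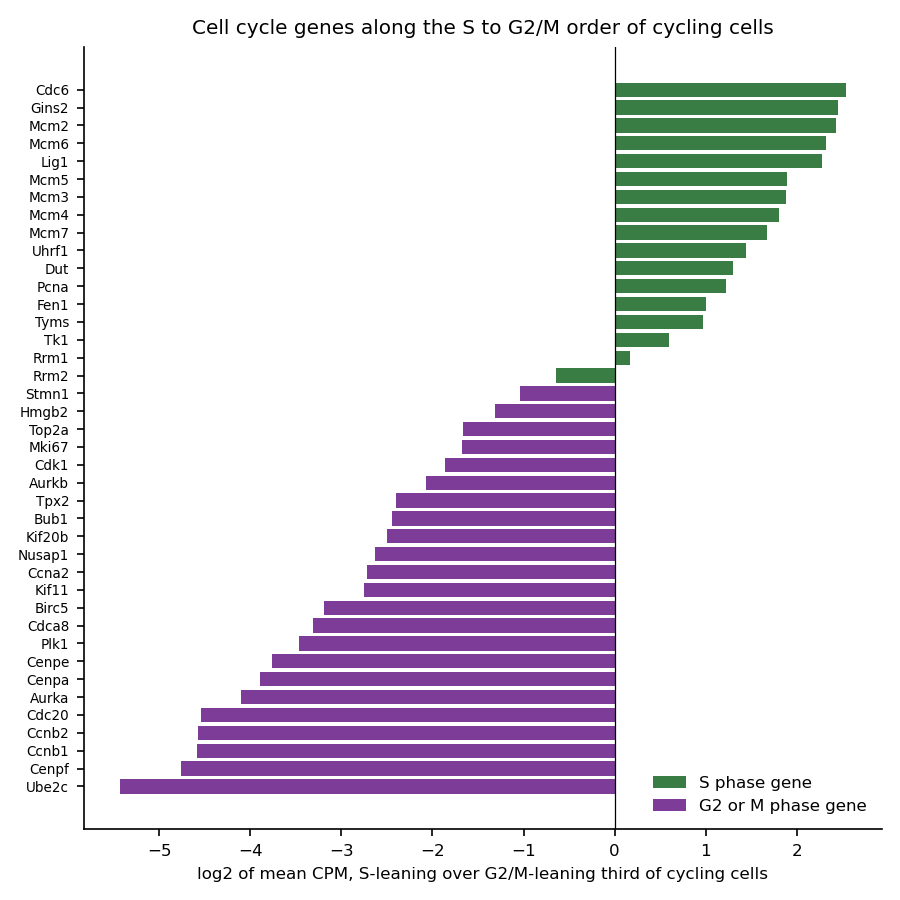
Log2 ratio of the mean CPM in the S-leaning over the G2/M-leaning part of the cycling cells for each of the 40 members, S genes in green and G2/M genes in purple, with 12 mice in each mean. The members fall on the side of their phase except Rrm2, and the bars run from Cdc6 (5.81-fold higher in the S-leaning part) to Ube2c (43.2-fold higher in the G2/M-leaning part).

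Outside the cycling subset, summed S levels differed little between subsets: 368 ± 21.6 CPM in recirculating, 365 ± 44.9 in unnamed 1, 403 ± 71.1 in unnamed 3, 399.9 ± 50.1 in Th17 (SD, n = 12) and 393 ± 55.0 in regulatory cells (n = 8, the mice with at least 20 such cells). Cytotoxic cells carried the most, 507 ± 96.7 CPM, against 3775 ± 278 in cycling cells. The sum of the 22 G2/M genes without Hmgb2 was lowest in unnamed 1 (178 ± 29.8 CPM), stood at 216 ± 57.5 in Th17 and between 248 and 258 in recirculating, unnamed 3 and cytotoxic cells, and was 297 ± 86.7 in regulatory and 6221 ± 711 in cycling cells. For the G2/M sum the ranges of the mice overlapped between all subsets but cycling. For the S sum they overlapped too, except that the lowest cytotoxic value (422 CPM) was above the highest recirculating one (405). Ranges leave out that the subsets come from the same mice. In every mouse the G2/M sum without Hmgb2 was higher in recirculating and in cytotoxic cells than in unnamed 1 cells. The S sum was also higher in cytotoxic than in unnamed 1 cells in every mouse.

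Cells were thinned to 1500 UMIs each to compare shares of cells at 1 depth, since the median depth ran from 2164.5 UMIs in unnamed 3 to 5132.5 in cycling cells. This left out 491 cells of KO and 407 of WT mice. Cells with at least 3 UMIs of the members then made up 99.4% of cycling cells and 25.0% (regulatory, n = 7) to 45.1% (unnamed 3) of the other subsets. Without Hmgb2 the share was 97.2% of cycling cells and 5.29% of unnamed 1, 6.89% of regulatory, 7.18% of recirculating, 7.27% of Th17, 8.13% of unnamed 3 and 10.2% of cytotoxic cells. Single genes showed the same split at this depth. Mki67 was detected in 54.7% of cycling cells and 2.62 to 3.63% of each other subset, Top2a in 51.9% and 4.12 to 7.37%, and Pcna in 30.4% and 6.67 to 9.62%. Hmgb2 was detected in 95.1% of cycling cells and in 49.8% (regulatory) to 75.9% (unnamed 3) of the others. No cell type that should lack these genes is labelled in the table, so the part of free RNA in the low shares was not tested.

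**Figure D3:**
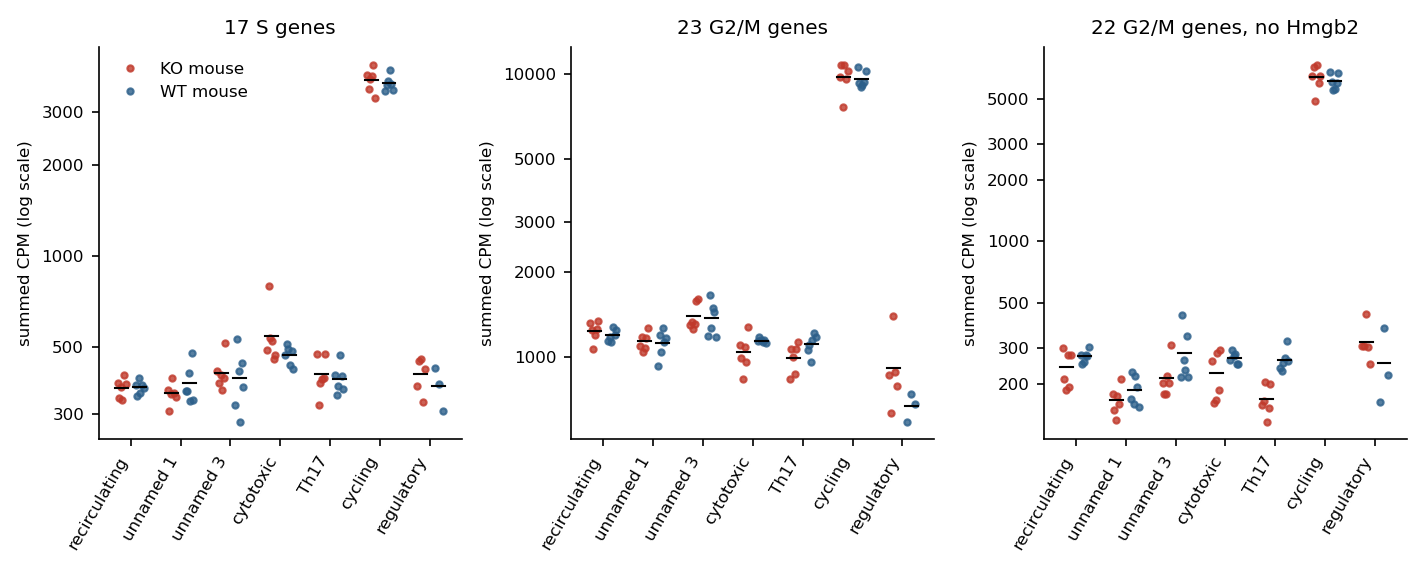
Summed CPM per mouse (log scale) of the 17 S genes, the 23 G2/M genes and the 22 G2/M genes without Hmgb2 in each subset, with KO mice in red, WT mice in blue and the mean of a genotype as a line. Cycling cells stand apart in all 3 panels (3775, 9713 and 6221 CPM on average), and only the panel without Hmgb2 shows KO and WT mice of the Th17 subset without overlap.

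A few cells outside the cycling subset carried many of the transcripts. With at least 10 UMIs of the members other than Hmgb2 as the limit, 281 of 17672 such cells passed, against 1109 of 1188 cycling cells (93.4%). They included 114 recirculating (2.66%), 75 cytotoxic (1.95%), 48 Th17 (2.16%) and 7 regulatory cells (1.84%), but 19 of unnamed 1 (0.482%) and 18 of unnamed 3 (0.603%). The 281 cells had a median of 5587 UMIs and a median deposited doublet score of 0.0700, against 2691 UMIs and 0.0646 in the other non-cycling cells and 5132.5 UMIs and 0.0773 in cycling cells, and the part of depth and doublets was not tested. They held 13.3% of the member UMIs without Hmgb2 outside the cycling subset. Per mouse, the share was 1.09% ± 0.842 in KO mice (0.323 to 2.60%) and 2.16% ± 0.577 in WT mice (1.41 to 3.02%), ranges that overlap.

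Among single members, Ube2c, Birc5 and Ccnb2 had the largest folds of recirculating over unnamed 1 cells, while other members went the other way. Ube2c stood at 34.2 ± 11.8 CPM in recirculating cells (13.3 to 54.4, median 34.6), above unnamed 1 (4.66 ± 5.17) in 12 of 12 mice, 7.34-fold on average, and above unnamed 3 (9.04 ± 9.74) in 11. Cytotoxic (16.8 ± 9.15), Th17 (15.9 ± 12.1) and regulatory cells (15.1 ± 19.6, n = 8) lay between. Recirculating cells were above cytotoxic cells in 11 of 12 mice, while cytotoxic, Th17 and regulatory cells, next to each other in this order, did not differ beyond their spread. Ube2c is also among the genes with low counts here: 2 of 12 mice were at 0 in unnamed 1, in unnamed 3, in cytotoxic and in Th17 cells. At 1500 UMIs, 3.18% of recirculating cells and 0.458% of unnamed 1 cells had a Ube2c UMI, against 37.9% of cycling cells. Of the 537 Ube2c UMIs in recirculating cells, 84.5% were in cells with fewer than 10 UMIs of the other members, Hmgb2 left out. The same share was 49.2% of Ccnb2 UMIs and 55.5% of Birc5 UMIs. Ube2c was not set apart by this share. Over the members it ran from the 49.2% of Ccnb2 to 100% (Nusap1), with Stmn1 at 63.2%, Mki67 at 87.8% and Top2a at 94.1%.

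Birc5, the survivin subunit of the passenger complex, and Ccnb2 shared the low level in unnamed 1 but not the rest of the order. Birc5 was at 7.84 ± 3.56 CPM in recirculating and 1.39 ± 1.34 in unnamed 1 cells (5.64-fold), and Ccnb2 at 11.8 ± 5.27 and 2.74 ± 3.35 (4.32-fold), both higher in recirculating cells in 12 of 12 mice. Unlike Ube2c, neither separated cytotoxic from recirculating cells: Birc5 was higher in cytotoxic cells in 5 of 12 mice (7.80 ± 6.65 CPM) and Ccnb2 in 6 (9.57 ± 4.81 CPM). Cenpa differed less, 1.40-fold, yet also in 12 of 12 mice, and its highest mean outside the cycling subset was in regulatory cells (160 ± 67.5 CPM, n = 8). Mki67 did not separate these subsets, with 25.3 ± 5.26 and 22.5 ± 9.37 CPM and 8 of 12 mice higher in recirculating cells. Other members were lower in recirculating cells. Rrm1 was higher there than in unnamed 1 cells in 0 of 12 mice (0.78-fold) and Pcna in 1 (0.86-fold). Against unnamed 3, Top2a (0.59-fold) and Hmgb2 (0.85-fold) were higher in recirculating cells in 0 of 12 mice. In 12 of 12 mice 4 S genes were higher in cytotoxic than in recirculating cells: Lig1 (2.05-fold), Mcm6 (1.75-fold), Mcm4 (1.53-fold) and Pcna (1.32-fold).

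**Figure D4:**
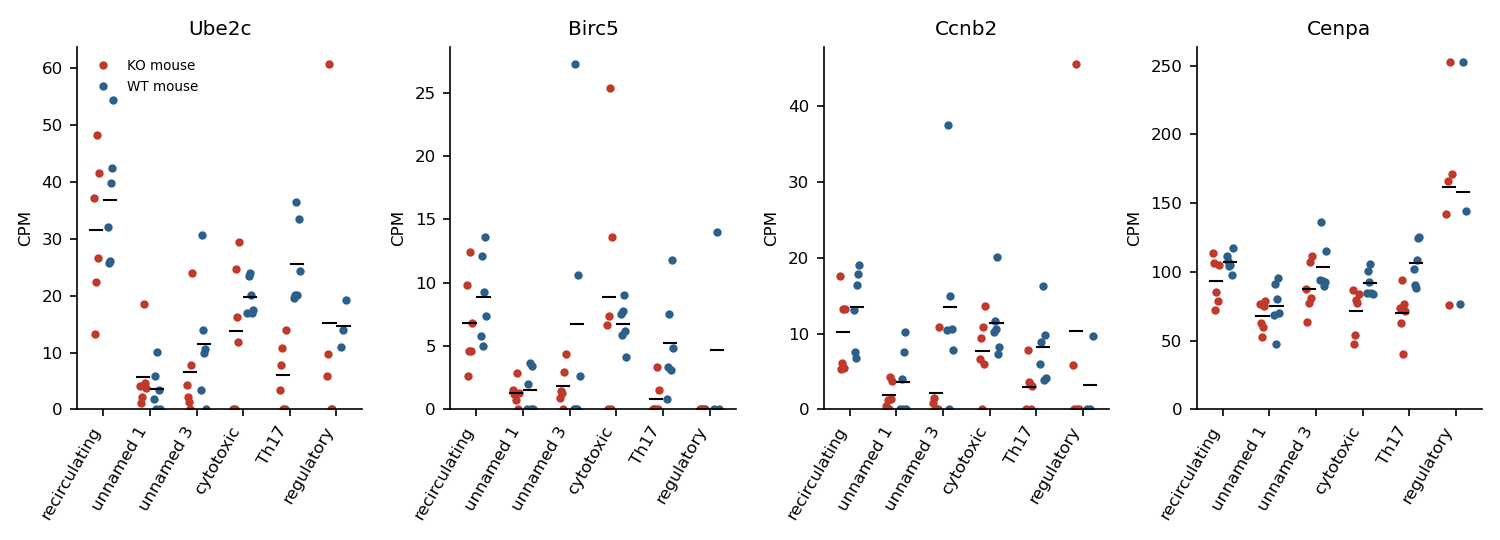
CPM of Ube2c, Birc5, Ccnb2 and Cenpa per mouse in the 6 non-cycling subsets, KO mice in red and WT mice in blue, with lines at the mean of a genotype. Ube2c, Birc5 and Ccnb2 are higher in recirculating than in unnamed 1 cells in 12 of 12 mice. Members that went the other way, such as Rrm1, are not drawn.

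KO and WT mice were compared on UMIs summed per mouse with edgeR's quasi-likelihood test across all genes, and a gene with a Benjamini-Hochberg adjusted p under 0.05 was called. Summed over all cells, 1 of the 40 members passed, Mcm6, and it fell in KO mice. The share of all 9861 genes called was 14.2%, and 7.21% were called lower, beside 2.5% of the members. Mcm6, a subunit of the replicative helicase, ranged from 45.9 to 82.4 CPM in KO mice (median 60.8) and from 69.0 to 102 in WT mice (median 87.1). The ranges overlapped, and the log2 fold change was -0.45 ± 0.12 (SE, edgeR adjusted p = 0.0232). Without KO mice 1 and 2, which had the fewest recirculating cells, it was -0.33 with an adjusted p of 0.0986 (edgeR), and 4 of the 12 fits that left out 1 mouse (KO5, WT3, WT4 or WT5) also lost the call, with adjusted p of 0.0506 to 0.0546.

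In the cells outside the cycling subset, 6 members fell in KO mice and none rose: Mcm3, Mcm6 and Tk1 of S phase and Mki67, Ccnb2 and Cenpa of G2 or M phase. Of the 40 members 30 were tested, and the 10 that had too few UMIs were Cdc6, Ccnb1, Ccna2, Cenpf, Aurka, Aurkb, Bub1, Nusap1, Cdc20 and Plk1. The 6 calls are 20% of the tested members against 15.0% of all 9619 genes, and against 7.58% of all genes called lower. The median log2 fold change was -0.01 over the 16 S genes tested, 7 higher and 9 lower, and -0.41 over the 14 G2/M genes, 1 higher (Hmgb2) and 13 lower, beside -0.00 over all genes tested.

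Mcm6 stood between 29.4 and 56.5 CPM in KO mice (median 42.9) and between 53.3 and 71.3 in WT mice (median 67.0). Only KO4 lay above the lowest WT mouse. Its log2 fold change was -0.63 ± 0.13 (SE, edgeR adjusted p = 0.00306). Mcm3, which encodes another subunit of the same helicase, ranged from 19.2 to 24.8 (median 21.8) and from 21.7 to 30.0 CPM (median 27.0), with a log2 fold change of -0.33 ± 0.10 (edgeR adjusted p = 0.0310). KO2, KO4 and KO6 lay above the lowest WT mouse. The call was lost when subsets were given the same weight in every mouse (-0.05, edgeR adjusted p = 0.882), with equal numbers of cells per mouse (-0.30, 0.0649), without KO mice 1 and 2, and in 6 of 12 fits without 1 mouse (KO1, KO3, KO5, WT2, WT4 or WT5). Tk1 rested on 75 UMIs in KO and 152 in WT mice, at 1.70 to 5.01 CPM (median 2.76) and 4.46 to 7.73 (median 5.24). KO6 alone lay within the WT range, and the log2 fold change was -0.97 ± 0.23 (edgeR adjusted p = 0.00982). With subsets at the same weight Tk1 had -0.90 with an edgeR adjusted p of 0.0567.

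Mki67 ranged from 14.6 to 27.6 CPM in KO mice (median 21.4) and from 26.9 to 31.6 in WT mice (median 30.3). KO6 alone overlapped the WT mice, and the log2 fold change was -0.49 ± 0.12 (edgeR adjusted p = 0.0134). Cenpa ranged from 66.7 to 96.7 (median 77.1) and from 93.8 to 110 CPM (median 98.7), with KO6 again the only KO mouse in the WT range and a log2 fold change of -0.37 ± 0.08 (edgeR adjusted p = 0.00517). Ccnb2, a cyclin that partners with Cdk1 in mitosis, was split among the KO mice: KO4 and KO6 were at 8.45 and 9.82 CPM, within the WT range of 8.72 to 12.4 or just below it, and the other KO mice at 2.10 to 3.11. Its log2 fold change was -1.12 ± 0.31 (edgeR adjusted p = 0.0211), and the call was lost without KO1 (adjusted p = 0.0525) or KO5 (0.0514) and with subsets at the same weight (-0.79, 0.0641). Without KO mice 1 and 2, Mcm6 and Cenpa kept their calls, while Mcm3 (edgeR adjusted p = 0.0868), Mki67 (0.0586), Ccnb2 (0.103) and Tk1 (0.0588) missed the threshold.

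The mix of subsets differed between the mice. Recirculating cells made up 43.9% of the non-cycling cells of KO6, 26.9% of KO4, 26.5% of KO3, 19.9% of KO5, 9.44% of KO1 and 7.24% of KO2, and unnamed 1 cells 18.1 to 44.3% in KO mice and 6.64 to 12.3% in WT mice. KO3 and KO4 had similar shares of recirculating cells, with Ccnb2 at 2.67 and 8.45 CPM. KO6, with the highest share, had the highest Ccnb2 of the KO mice. KO1 and KO2, with the lowest shares, were among the KO mice with low Ccnb2. Whether Ccnb2 follows this share was not tested. With the subsets given the same weight, Mcm6 (-0.40, edgeR adjusted p = 0.0289), Cenpa (-0.33, 0.00718) and Mki67 (-0.43, 0.0456) remained called.

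Ube2c itself had 3.41 to 27.8 CPM in KO mice (median 11.2) and 19.3 to 28.3 in WT mice (median 25.0), with KO4 (25.6) and KO6 (27.8) within the WT range, and was not called (log2 fold change -0.75 ± 0.31, edgeR adjusted p = 0.120). The other members that the naming rule covers were not called either. Stmn1 ranged from 6.57 to 16.7 and from 11.05 to 15.0 CPM (edgeR adjusted p = 0.128), Dut from 57.2 to 81.0 and from 70.1 to 88.8 (0.133), Top2a from 28.6 to 41.6 and from 32.7 to 42.6 (0.239) and Cdk1 from 2.72 to 5.02 and from 3.09 to 5.41 (0.498). Of the members under this rule, Hmgb2 (986 and 917 CPM), Pcna (56.0 and 48.5), Rrm1 (24.2 and 22.7) and Rrm2 (4.75 and 3.16) had a higher KO median. Their ranges overlapped, with edgeR adjusted p of 0.288, 0.174, 0.559 and 0.256. Over all 30 tested members, 8 had a positive log2 fold change.

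Within single subsets few members were called. In Th17 cells 2 of the 12 tested fell in KO mice, where 5.09% of all genes were called and 2.57% called lower. Ube2c was at 0, 0, 3.504, 7.84, 10.8 and 14.0 CPM in the 6 KO mice and at 19.5 to 36.4 in WT mice (median 22.2), with no overlap, from 14 and 148 UMIs (log2 fold change -1.73 ± 0.41, edgeR adjusted p = 0.0119). Cenpa ranged from 40.4 to 94.0 (median 72.7) and from 88.0 to 125 CPM (median 105), with 1 KO mouse above the lowest WT mouse (-0.63 ± 0.16, edgeR adjusted p = 0.0197). Both missed the threshold without KO mice 1 and 2 (edgeR adjusted p = 0.0543 for each), Cenpa also without KO4 (0.0566), and Ube2c was filtered out when WT2, WT3, WT4 or WT6 was left out. The G2/M sum without Hmgb2 in Th17 cells was 131 to 206 CPM in KO mice and 232 to 325 in WT mice. The call in Th17 and its absence in another subset were not compared by a test.

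In the remaining non-cycling subsets no member was called by edgeR or by DESeq2. Of 19 tested in recirculating cells 2 had an unadjusted p under 0.05, of 13 in unnamed 1 there was 1, of 8 in unnamed 3 there were 3, of 18 in cytotoxic cells 3 and of 2 in regulatory cells 0. All genes were called at 5.48% in recirculating, 4.65% in unnamed 1, 8.42% in unnamed 3, 2.89% in cytotoxic and 0.513% in regulatory cells.

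In cycling cells 1 of 39 tested members passed: Stmn1 rose in KO mice. All genes were called at 5.36% there and called higher at 2.44%, and the median log2 fold change was -0.03 over the members. Stmn1 ranged from 714 to 1064 CPM in KO mice (median 973) and from 699 to 801 in WT mice (median 736). KO3 alone lay within the WT range, and the log2 fold change was 0.29 ± 0.08 (SE, edgeR adjusted p = 0.0398). The call was lost in 9 of 12 fits that left out 1 mouse, all but those without KO3, KO6 or WT6, with adjusted p up to 0.102, and without KO mice 1 and 2 (0.21, edgeR adjusted p = 0.291). The loading factor Cdc6, outside the naming rule and picked for its p, had 36.4 to 65.6 CPM in KO mice (median 45.1) and 56.9 to 71.3 in WT mice (median 65.7), a log2 fold change of -0.51 ± 0.15 that missed the threshold (edgeR adjusted p = 0.0502).

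The 6 members that fell outside the cycling subset had log2 fold changes from -0.28 (Ccnb2) to 0.04 (Mki67) within it. Mcm6 was at 189 to 277 CPM in cycling cells of KO mice (median 252) and 201 to 303 in WT mice (median 264), and its log2 fold change was -0.15 ± 0.11 (edgeR adjusted p = 0.540). Mki67 ranged from 685 to 1061 (median 913) and from 789 to 929 (median 831), Cenpa from 337 to 535 (median 369) and from 386 to 574 (median 462). Ccnb2 ranged from 151 to 258 (median 195) and from 191 to 334 (median 225), Tk1 from 158 to 190.0 (median 169.7) and from 152 to 200.5 (median 166), and Mcm3 from 230 to 363 (median 303) and from 266 to 308 (median 294). KO and WT mice overlapped for each of them, and edgeR adjusted p ran from 0.279 to 0.992.

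The other members with high levels there also overlapped between genotypes. Dut ranged from 412 to 540 CPM in KO mice and from 420 to 487 in WT mice, Rrm2 from 330.0 to 430.4 and from 311 to 426, Pcna from 235 to 356 and from 262 to 337, and Rrm1 from 235 to 323 and from 237 to 273. Hmgb2 ranged from 2787 to 3840 and from 3263 to 3812 CPM, Top2a from 595 to 954 and from 588 to 738, Ube2c from 379 to 771 over both genotypes, and Cdk1 from 148 to 257 and from 176 to 205. Top2a, which untangles DNA, had the lowest edgeR adjusted p of these (0.291, log2 fold change 0.20 ± 0.09).

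Whether the genotype effect itself differed between cycling and other cells was tested with limma on the difference within each mouse. None of 30 members passed, where 0.189% of all genes did. The difference was 0.52 ± 0.13 for Mcm6 on the log2 scale (SE, limma adjusted p = 0.123), 0.89 for Tk1 (0.169), 0.54 for Mki67 (0.311), 1.00 for Ccnb2 (0.390), 0.32 for Mcm3 (0.470) and 0.14 for Cenpa (0.851). The fall of these 6 members is therefore not shown to differ in size between cycling and other cells.

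**Figure D5:**
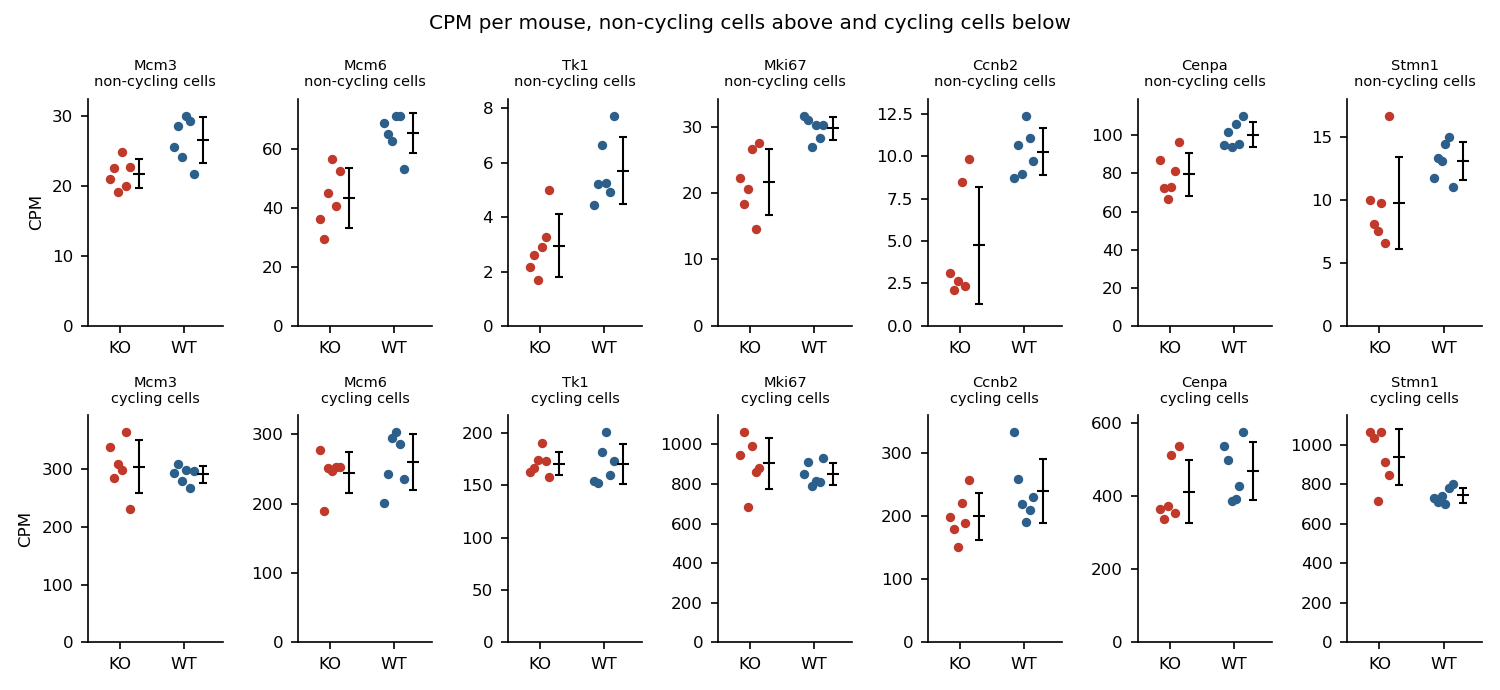
CPM per mouse of the 7 members called in non-cycling (upper row) or cycling cells (lower row), KO mice in red and WT mice in blue, with the mean and SD of 6 mice beside them. In the upper row 6 members lie lower in KO mice with at most partial overlap, and in the lower row Stmn1 alone was called, with 973 against 736 CPM as medians.

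Clone size, the number of cells that share a T cell receptor sequence, was not used to choose the members. Non-cycling cells of clones of 2 or more cells in a mouse were compared with those of clones of 1 cell, with the mouse as a block. None of 20 tested members passed in edgeR (4 at an unadjusted p under 0.05), where 6.85% of all genes did. Of the 20, 16 were higher in expanded clones, with a median log2 fold change of 0.09 beside -0.01 over all genes tested. Mcm6 was at 57.4 ± 14.9 and 47.9 ± 16.1 CPM (SD, n = 12), higher in expanded clones in 10 of 12 mice (0.24 ± 0.08, edgeR adjusted p = 0.0885), and Stmn1 at 12.7 ± 3.46 and 9.23 ± 3.99, higher in 11 (0.46 ± 0.16, edgeR adjusted p = 0.0902).

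Other genes of the pathway were counted from lists chosen with earlier results of these data known. Of 42 further S phase genes tested outside the cycling subset, 6 fell in KO mice and none rose in edgeR, where 15.0% of all genes were called and 7.58% called lower. Hells, a chromatin remodeller of the replication and methylation machinery, had 19.6 to 30.3 CPM in KO mice and 35.1 to 44.6 in WT mice. The groups did not overlap, and the log2 fold change was -0.85 ± 0.11 (SE, edgeR adjusted p = 6.0e-05). Tmpo, which encodes nuclear lamina proteins, had 75.5 to 97.1 and 104 to 126 CPM, also with no overlap (-0.45 ± 0.07, edgeR adjusted p = 0.000333), though its UMIs can include those of an overlapping gene. The deubiquitinase Usp1 (-0.23, edgeR adjusted p = 0.0191) and the polymerase alpha subunit Pola2 (-0.45, 0.0191) fell as well. In cycling cells Hells stood at 146 ± 15.5 and 145 ± 14.3 CPM, and Tmpo at 454 ± 46.2 and 447 ± 53.4. Both differences of effect passed, 0.81 ± 0.13 for Hells (limma adjusted p = 0.000613) and 0.42 ± 0.09 for Tmpo (0.0332), the latter not without KO mice 1 and 2 (0.221). Of 39 further G2/M genes, against the same shares of all genes, 7 fell, among them the condensin subunit Smc4 (-0.29, edgeR adjusted p = 0.00527), the histone chaperone Anp32e (-0.23, 0.00762) and the passenger complex scaffold Incenp (-0.36, 0.0212), and the tubulin Tubb4b rose (0.44, 0.0266). The call of Tubb4b, which overlaps another gene of the table, was lost in the fits without KO1, KO2, KO5, WT1, WT4 or WT6, with edgeR adjusted p up to 0.0707, and those of Pola2 (0.0522) and Incenp (0.0563) without WT1. With subsets at the same weight Usp1 (edgeR adjusted p = 0.0751), Pola2 (0.193), Incenp (0.336) and Tubb4b (0.0716) were not called. Hells, Tmpo, Smc4 and Anp32e kept their calls outside the cycling subset in every fit run. In cycling cells 0 of 47 further S genes and 0 of 56 further G2/M genes were called by edgeR, where 5.36% of all genes were called.

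Upstream of S phase, the D cyclins moved the other way. Of 11 tested G1 cyclins and kinases, Ccnd2 and Ccnd3 rose and Cdk6 fell in the non-cycling cells of KO mice, where 15.0% of all genes were called. Ccnd2 had 207 to 312 CPM in KO mice and 145 to 185 in WT mice, and Ccnd3 232 to 325 and 159 to 199. Neither overlapped, and the log2 fold changes were 0.73 ± 0.09 (edgeR adjusted p = 5.1e-05) and 0.61 ± 0.09 (0.000217). Cdk6, the kinase that D cyclins activate, had 48.7 to 66.5 and 70.7 to 81.2 CPM, again with no overlap (-0.47 ± 0.07, edgeR adjusted p = 0.000392). The UMIs of these 3 genes can include those of an overlapping gene. Both D cyclins rose in each of the recirculating, unnamed 1, unnamed 3, cytotoxic and Th17 subsets, by 0.49 to 0.91 for Ccnd2 and 0.38 to 0.72 for Ccnd3 on the log2 scale. In cycling cells their log2 fold changes were 0.45 (edgeR adjusted p = 0.131) and 0.30 (0.0779), and the differences of effect were -0.29 (limma adjusted p = 0.518) and -0.31 (0.155).

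Of 15 cell cycle transcription regulators tested in the non-cycling cells, the MuvB subunit Lin54 (0.57, edgeR adjusted p = 0.0176) and the retinoblastoma gene Rb1 (0.28, 0.0148) rose in KO mice. The retinoblastoma relative Rbl2 (-0.30, edgeR adjusted p = 0.00859) and the E2F partners Tfdp1 (-0.42, 0.0163) and, named outside the rule, Tfdp2 (-0.49, 0.0389) fell. The UMIs of Rb1 and Rbl2 can include those of an overlapping gene. The call of Tfdp2 was lost in 10 of the 12 fits that left out 1 mouse, all but those without KO2 or WT4, with edgeR adjusted p up to 0.0869. Without KO mice 1 and 2, Lin54 (edgeR adjusted p = 0.0883), Rb1 (0.0883), Rbl2 (0.0566) and Tfdp1 (0.0897) missed the threshold, and with subsets at the same weight Lin54 did (0.19, 0.299). Of 12 inhibitors and quiescence genes, Cdkn2d, an inhibitor of Cdk4 and Cdk6, fell (-0.55, edgeR adjusted p = 0.0214), a call lost without KO1 (0.0504) or KO5 (0.0513). All genes were called at 15.0% in the non-cycling cells, the share to set beside the regulators and the inhibitors. In cycling cells Lin54 rose (0.61 ± 0.15, edgeR adjusted p = 0.0170) among 14 regulators, and the antiproliferative Btg1 rose (0.20 ± 0.06, 0.0331) among 11 inhibitors. All genes were called at 5.36% in cycling cells. The effect on Btg1 differed between cycling and other cells by 0.33 ± 0.06 (limma adjusted p = 0.00559, or 0.113 without KO mice 1 and 2), since it was -0.12 outside the cycling subset.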

How the data were processed

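The authors deposited counts of UMIs per gene and cell, with a table of cells that gives the mouse, genotype, cluster, subset name, clonotype, a doublet score and the percent of mitochondrial UMIs. The submitters' processing notes name Cell Ranger 3.1.0, Seurat 3.1.5 and the builds GRCm38 and mm10, and their cell filter and strand setting are not given in the sources used here. The deposited counts were not normalized, and the deposited percent and score were used only to describe cells. No doublet caller was run, and the highest doublet score was 0.354. UMIs were summed per mouse and subset in Python 3.11.15, over mice with at least 20 cells of a subset, and scaled to CPM. Each mouse had 4252124 UMIs or more, and precision is limited by the UMIs of single genes.

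KO and WT were compared in R 4.3.3 with edgeR 4.0.16 (TMM scaling, filterByExpr, quasi-likelihood F test, two-sided, Benjamini-Hochberg adjustment over all genes tested). The difference of effects was fitted with limma 3.58.1 on log2 CPM with a prior count of 2. The fits were tested on simulated data. DESeq2 1.42.0, its size factors, no low-count filter, equal weights of subsets, equal cell numbers, leaving out mice, the doublet score, the prior count, clone size, thinning and scaling were alternatives. The members and lists were chosen with earlier results of these data known. Named with values per mouse were all members called in all, non-cycling or cycling cells, the 6 S and the 6 G2/M members with the highest mean CPM in cycling cells, and Mki67, Pcna, Top2a and Cdk1. In other subsets up to 3 called members per direction were named, and up to 4 called genes with the smallest p of each of the 5 other cell cycle lists. Promoters came from RefSeq, GRCm38.p6. A marker list of other lymphoid cells is not reported here.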

Additional observations from a re-analysis of the deposited data

Results flagged for a closer look

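Among 108 groups of 6 mice examined for 1 mouse far from the other 5, 10 had such a mouse, and chance alone sets about 1 in 20 groups apart. Outside the cycling subset, Stmn1 in KO6 was at 16.7 CPM with the next KO mouse at 10.04, Rrm1 in WT4 at 16.96 with the next WT mouse at 22.5, and Ccnd3 in WT6 at 159 with the next at 185. In cycling cells Mcm6 in KO2 was at 189 CPM with the next KO mouse at 247, and Rrm2 in KO4 at 430.4 with the next at 363. WT4 stood above the other WT mice in cycling cells for Rrm2 (426 CPM, next 334), Pcna (337, next 287) and Ccnd3 (282, next 245). The sum of the 17 S genes was 515 CPM in unnamed 3 cells of KO6 (next 418) and 795 in cytotoxic cells of KO2 (next 536).

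For 3 genes outside the list of members the KO effect differed between cycling and other cells by limma's test of that difference. It was 0.81 on the log2 scale for Hells (limma adjusted p = 0.000613), 0.42 for Tmpo (0.0332) and 0.33 for Btg1 (0.00559), with the effect in cycling cells the higher one in each.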

How the results depend on the processing

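Of 333 values of single genes under settings other than leaving out 1 mouse, 278 kept their direction and side of the threshold, 52 lost the call and 3 changed sign. With 1 mouse left out, 580 of 668 did so, 79 lost the call, 2 gained one and 7 changed sign. Counts of members called under DESeq2 or its size factors stayed within 1.5 times the reported ones. Without the filter on low counts unnamed 3 had 1 called member (Ccnb2). Without KO mice 1 and 2 the count was 0 in all cells, 3 in non-cycling (Mcm6, Cenpa and Kif20b), 1 in recirculating (Cenpa), 0 in Th17 and 0 in cycling cells. With subsets at the same weight it was 3 in all cells (Mcm6, Cenpa and Ccnb2) and 3 in non-cycling cells. Without the top 10% of doublet scores cycling cells had 2 (Stmn1 and Cdc6). With 1 mouse left out, counts ran from 0 to 3 in all cells (3 without KO6), 4 to 9 in non-cycling, 0 to 1 in recirculating, unnamed 1, unnamed 3, cytotoxic and cycling cells, and 1 to 2 in Th17 cells. The single calls came without KO6 in recirculating and unnamed 3 (Cenpa), without KO4 in unnamed 1 (Mcm6), and without KO4 (Mki67) or KO6 (Hmgb2) in cytotoxic cells. Without KO5 the call in cycling cells was Cdc6. The causes were not tested.

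In cycling cells the log2 fold change changed sign for Mcm3 (-0.018 without KO mice 1 and 2, -0.011 without high doublet scores, -0.045 to 0.081 with 1 mouse left out), for Mki67 (-0.032 without KO mice 1 and 2 and, with 1 mouse left out, -0.0023 to 0.10) and for Tmpo (-0.068 to 0.031 with 1 mouse left out). Of the named genes of the other lists, calls were lost with 1 mouse left out for Tfdp2 (10 of 12 fits), Tubb4b (6), Cdkn2d (2), Pola2 (1) and Incenp (1) in non-cycling cells, and in cycling cells for Lin54 (without KO1 or WT3) and Btg1 (8 fits, all but those without KO3, KO6, WT4 or WT6). Shares of cells with 3 or more member UMIs at 500 UMIs were 5.70% (recirculating), 4.18% (unnamed 1), 6.504% (unnamed 3), 5.43% (cytotoxic), 6.34% (Th17), 81.4% (cycling) and 2.72% (regulatory). Without thinning they were 76.1%, 66.9%, 65.98%, 60.8%, 75.2%, 99.7% and 53.7%. At 1500 UMIs and without Hmgb2, chosen after seeing the data, they were 7.18%, 5.29%, 8.13%, 10.2%, 7.27%, 97.2% and 6.89%. The G2/M sum without Hmgb2 was 258, 178, 250.2, 248, 216, 6221 and 297 CPM in the same order. No paired analysis was possible because the KO and WT mice carry different hashtag numbers.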
